A study of Mus musculus with 4 samples.

Results

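The genes encoded by mitochondrial DNA were followed across RNA-seq libraries of brown adipose tissue from ATF4 knockout mice (KO), in which thermogenic adipocytes lack this transcription factor, and from their wild-type counterparts (WT). The genes were taken by name, as every gene whose symbol in the GENCODE vM21 annotation begins with mt-. This gave 37 genes of the 52022 genes in the files, namely 13 protein genes, 2 ribosomal RNAs (rRNAs) and 22 transfer RNAs (tRNAs). The 13 protein genes and the 2 rRNAs had counts, and every tRNA was listed at 0 in all 4 libraries.

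The KO group held libraries KO 1 and KO 2 and the WT group held libraries WT 1 and WT 2. All 4 came from brown fat of male mice with free access to food, kept for 12 weeks on feed with 60% fat. The sources used here do not give the driver of the deletion, the strain, the age or the number of animals behind each library. Library names begin with S1 for KO 1 and WT 2 and with S2 for KO 2 and WT 1, and the labels do not say what this prefix stands for. Each prefix therefore holds 1 library of each genotype.

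Mitochondrial DNA is a small circular genome present in many copies per cell. It is transcribed from both strands into long precursors, from which the tRNAs are cut out and the mRNAs and rRNAs released between them. Its mRNAs encode core subunits of the respiratory chain and of ATP synthase, which are assembled with many nuclear-encoded subunits. Brown fat is packed with mitochondria and burns fuel for heat through the uncoupling protein UCP1, so mitochondrial transcripts are a large part of its RNA. Parts of mitochondrial DNA have also been copied into the nuclear genome, where they lie as pseudogenes that can draw sequencing reads away from the true gene.

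Total estimated counts were 25985367 and 30405113 in KO 1 and KO 2, against 32714456 and 34813870 in WT 1 and WT 2. Atf4 was at 24.97 and 24.5 counts scaled to a library total of 1e6 with edgeR's TMM factors (CPM) in KO 1 and KO 2, against 29.2 in the library labelled WT 1 and 107 in WT 2. The targeted gene thus did not by itself set WT 1 apart from KO (log2 fold change -1.46, SE 0.57, adjusted p = 0.9998, edgeR quasi-likelihood test), and mitochondrial results are given below with and without single libraries where that matters. Brown adipocyte markers were abundant in all libraries, with Ucp1 at 7024 and 5989 CPM in KO 1 and KO 2, against 5563 and 6295 in WT 1 and WT 2. Skeletal muscle markers moved with genotype: 16 of 18 were called higher in KO and 0 lower. Their summed level was 3637 and 3214 CPM in KO 1 and KO 2, against 42.4 and 60.8 CPM in WT 1 and WT 2, and Myh4 had no count in either WT library. Muscle is also rich in mitochondria, and the part of these markers in the mitochondrial values was not tested.

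Sequence shared with nuclear copies limits which of the 15 measured genes can be read on their own. A row of 7 pseudogenes on chromosome 1 (minus strand, GRCm38) repeats a block of mitochondrial DNA that runs from mt-Co1 to mt-Nd4. Gm29216 (chr1:24615706-24616197) matched positions 1054 to 1545 of mt-Co1 with 486 of 492 bases identical. Its substitutions, with the mt-Co1 base first and positions counted from the 5′ end of the gene, were T1056A, C1057T, A1059G, A1060G, C1062A and A1066T, all within the first 13 bases of the copy. Gm28438 (chr1:24612775-24613119) matched mt-Nd3 in 344 of 345 bases, with the single substitution T3C. Below are the first 60 bases of each copy and the matching bases of the gene, shown because the capitals mark every base by which a read could tell gene from copy within the copied stretch. The mitochondrial stretches lie at chrM:6381-6440 and chrM:9459-9518 on the plus strand, the copies at chr1:24616138-24616197 and chr1:24613060-24613119 on the minus strand.
mt-Co1: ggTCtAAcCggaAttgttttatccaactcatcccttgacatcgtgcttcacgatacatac
Gm29216: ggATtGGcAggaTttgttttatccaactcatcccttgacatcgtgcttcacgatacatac
mt-Nd3: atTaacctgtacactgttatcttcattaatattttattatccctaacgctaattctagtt
Gm28438: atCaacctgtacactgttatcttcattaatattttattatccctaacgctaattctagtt

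The other copies had no difference from their gene over the copied bases. They were Gm28661 for mt-Co2 (681 bases), Gm10925 for mt-Atp6 (678), Gm28437 for mt-Co3 (783), Gm28439 for mt-Nd4 (876) and Gm10222 for mt-Nd4l (294). A read from within these stretches fits gene and copy equally well, and the quantifier then divides it by an estimate rather than by evidence from that read. Counted over stretches of 31 bases, 100% of mt-Co2, 99.9% of mt-Co3, 99.5% of mt-Atp6, 98.9% of mt-Nd4l and 98.1% of mt-Nd3 also occurred in nuclear transcripts. The share was 63.9% for mt-Co1 and 62.8% for mt-Nd4. It lay between 2.71% and 16.8% for mt-Rnr2, mt-Cytb, mt-Nd6, mt-Atp8, mt-Nd2 and mt-Nd5, and was 0 for mt-Nd1 and mt-Rnr1.

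Gm29216 took by far the most counts of the copies, with 652056 and 426322 in KO 1 and KO 2, against 551590 and 593633 in WT 1 and WT 2. That was 2.53% and 1.42% of the gene counts in KO, against 1.70% and 1.72% in WT, so the WT values lay between the KO values. Of the counts held by mt-Co1 and Gm29216 together, the copy had 22.7% and 15.1% in KO 1 and KO 2, against 16.7% and 17.8% in WT 1 and WT 2. Copies with perfect identity received very uneven counts between libraries. Gm10925, the copy of mt-Atp6, had 46425 and 1028 counts in KO 1 and KO 2, against 8108 and 3135 in WT 1 and WT 2. Gm28661, the copy of mt-Co2, had 398 and 60806 in KO 1 and KO 2, against 18104 and 49192 in WT 1 and WT 2. For both copies KO 1 and KO 2 differed by more than the genotype means did. Gm28439 and Gm10222 had 0 counts in every library. The 7 copies together held 2.77% and 1.63% of the gene counts in KO 1 and KO 2, against 1.84% and 1.95% in WT 1 and WT 2.

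**Figure D1:**
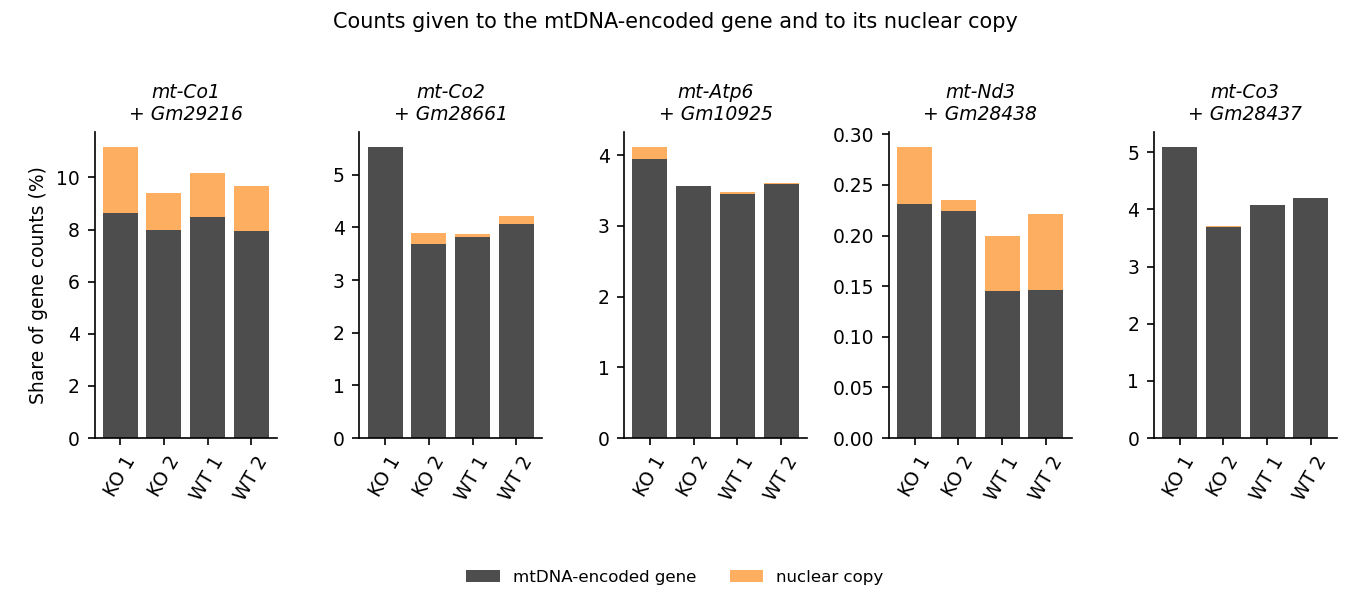
Share of gene counts (%, linear axes that differ between panels) given to 5 mtDNA-encoded genes (dark) and stacked on it that given to the nuclear copy (light), for libraries KO 1, KO 2, WT 1 and WT 2. The copy of mt-Co1 held 15.1 to 22.7% of the joint counts, and the copy of mt-Nd3 held 19.7% and 4.77% in KO 1 and KO 2, against 27.3% and 33.8% in WT 1 and WT 2.

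All mt- genes together held 38.9% and 32.95% of the gene counts in KO 1 and KO 2, against 34.1% and 33.9% in WT 1 and WT 2. The KO libraries thus lay on either side of the WT libraries, and the spread within KO exceeded the difference between genotypes. The mean was 35.9 ± 4.19% in KO and 34.0 ± 0.159% in WT (SD, n = 2 each), a difference of 1.90 percentage points (exact two-sided permutation test over libraries, p = 1.0). With 2 libraries against 2 this test cannot give a p below 0.3333. Counting error was far smaller than these differences: the 95% exact Clopper-Pearson interval was 38.86 to 38.90% in KO 1 and 32.94 to 32.97% in KO 2, against 34.11 to 34.15% in WT 1 and 33.89 to 33.92% in WT 2. Without KO 1 the difference turned to -1.06 points, without KO 2 it was 4.86 points, and without WT 1 it was 2.01 points. With the skeletal muscle genes left out of the counts it was 2.02 points. Measured as a share of deposited TPM (transcript abundance, which divides by effective length), the genes held 48.7% and 47.6% in KO 1 and KO 2, against 47.4% and 46.5% in WT 1 and WT 2. On that scale both KO libraries were above both WT libraries, by 1.20 points on average (exact permutation p = 0.3333, the smallest possible). The nuclear copies held a further 8.20% and 5.43% of TPM in KO 1 and KO 2. In WT 1 and WT 2 they held 6.30% and 6.52%. With the copies added, KO 2 lay below both WT libraries, so this separation did not hold. In bulk tissue, more mitochondrial RNA per cell and more mitochondria-rich cells cannot be told apart.

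The prefix divided the same values differently. Prefix S1 held 38.9% in KO 1 and 33.9% in WT 2, and prefix S2 held 32.95% in KO 2 and 34.1% in WT 1. The mean was 36.4 ± 3.52% in S1 and 33.5 ± 0.832% in S2 (SD, n = 2 each), a difference of 2.85 points (exact permutation p = 0.667). Within S1 the KO library was 4.98 points above the WT library, and within S2 it was 1.18 points below it (-1.18). KO 1, the library with the highest mitochondrial share and the lowest total count, also had the highest summed level of brown adipocyte markers (19168 CPM, against 15990 to 17267 in the other libraries), of red blood cell markers (2026 CPM, against 908 to 1131) and of endothelial markers (1206 CPM, against 650 to 941). It had the lowest summed level of macrophage markers (94.995 CPM, against 250 to 334), of fibroblast markers (389 CPM, against 592 to 972) and of white adipocyte markers (100.1 CPM, against 172 to 404). Single adipocyte markers did not all follow their sums. Of the brown adipocyte markers, KO 1 was highest for Ucp1, Cidea and Cox8b. It was lowest for Dio2 (36.9 CPM, against 68.8 to 113), Adrb3 (305 CPM, against 364 to 444) and Plin1 (817 CPM, against 986 to 1151). Of the white adipocyte markers, it was highest for Hoxc8 and not the lowest for Retn and Slc7a10. The part of these cell type markers in the mitochondrial share was not tested.

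Summed by complex, mitochondrially encoded subunits of complex IV, the cytochrome c oxidase, took the most counts. They held 19.3% and 15.4% in KO 1 and KO 2, against 16.4% and 16.2% in WT 1 and WT 2. Complex I subunits, from the NADH dehydrogenase, held 9.67% and 9.04% in KO 1 and KO 2, against 8.86% and 8.78% in WT 1 and WT 2. In shares, complex I was the only one of the 4 complexes in which both KO libraries lay on 1 side of both WT libraries, and in CPM complex V did too. Single genes did so for 26.3% of all genes tested on either scale. Among the complex I genes, mt-Nd3 alone had genotypes that did not overlap. Complex III, the cytochrome bc1 complex, has mt-Cytb as its only mitochondrially encoded subunit, with 5.45% and 4.23% in KO 1 and KO 2, against 4.62% and 4.49% in WT 1 and WT 2. Complex V, the ATP synthase, held 3.95% and 3.57% in KO 1 and KO 2, against 3.46% and 3.60% in WT 1 and WT 2.

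Levels per length were compared as TPM averaged over the 4 libraries. The order was mt-Co2 (84010 TPM), mt-Atp6 (72367), mt-Co3 (69775), mt-Co1 (59032), mt-Cytb (47575), mt-Nd4l (29245), mt-Nd1 (27246), mt-Nd4 (26035), mt-Nd2 (19679), mt-Nd3 (11998), mt-Nd6 (10860), mt-Nd5 (6944) and mt-Atp8 (4733). The ranges over libraries overlapped between mt-Atp6 and mt-Co3, between mt-Nd4l and mt-Nd1 and between mt-Nd3 and mt-Nd6, so these neighbours cannot be ordered. The other neighbours had TPM ranges that did not overlap. The range of mt-Nd4l (25692.9 to 31954.6 TPM) also held that of mt-Nd4 (25775.5 to 26320.3 TPM), so these cannot be ordered either. The order also depends on the length used. TPM rests on effective lengths, which were 26.1 bases for mt-Atp8 (204 bases long), 98.1 for mt-Nd4l (297) and 149 for mt-Nd3 (348). With counts per kilobase of full length instead, the order was mt-Co2, mt-Co3, mt-Co1, mt-Atp6, mt-Cytb, mt-Nd4, mt-Nd1, mt-Nd2, mt-Nd4l, mt-Nd6, mt-Nd5, mt-Nd3 and mt-Atp8. On that scale mt-Nd4 exceeded mt-Nd1 in every library, while in TPM it was lower in every library. With the nuclear copies added to the counts per kilobase, mt-Co1 (65453 per 1e6 gene counts) came before mt-Co2 (63982).

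**Figure D2:**
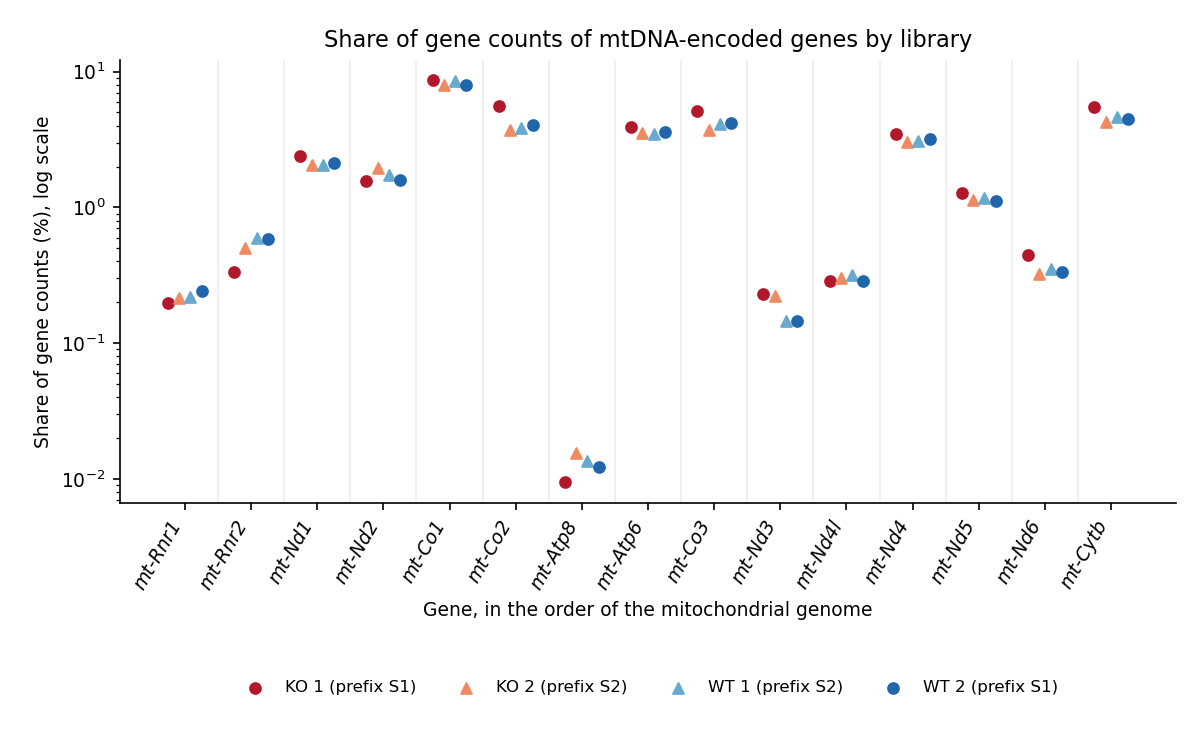
Share of gene counts (%, log scale) of the 13 protein genes and 2 rRNAs in mitochondrial genome order, 1 point per library (circles prefix S1, triangles prefix S2). On this scale only mt-Nd3 has both KO points above both WT points, and the 2 rRNAs have both KO points below both WT points.

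Complex I holds 7 of the 13 protein genes. The mt-Nd3 gene (ENSMUSG00000064360, chrM:9459-9806, plus strand) encodes a small membrane subunit with a loop near the quinone site. It held 0.231% and 0.224% of the gene counts in KO 1 and KO 2, against 0.145% and 0.146% in WT 1 and WT 2. Both KO libraries were above both WT libraries, and libraries of 1 genotype nearly coincided (0.228 ± 0.00490% in KO and 0.146 ± 0.000884% in WT, SD, n = 2 each). In shares it was the 1 gene of the 15 measured that lay wholly higher in KO, a state found for 8.14% of the 15643 genes tested. In CPM, the scale of the fitted changes, mt-Atp6 did so too, and 13.2% of all genes. The log2 fold change was 0.70 (SE 0.24) and missed the threshold of the edgeR quasi-likelihood test with Benjamini-Hochberg adjustment (adjusted p = 0.9998, unadjusted p = 0.0271). With the prefix as a block it was 0.70 (adjusted p = 0.266), and over 17 alternatives it stayed positive with adjusted p between 0.108 and 0.99997. Leaving out any 1 library gave 0.63 to 0.76, and the within-prefix differences were 0.76 in S1 and 0.63 in S2.

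The copy Gm28438 bears on that gene directly. It took 14564 and 3379 counts in KO 1 and KO 2, against 17620 and 25746 in WT 1 and WT 2, which as a share of the gene counts was 0.0566% and 0.0112% in KO, against 0.0544% and 0.0747% in WT. Corrected for depth in this way, KO 2 was the lowest library, and KO 1 lay between the WT libraries. With the copy added, mt-Nd3 held 0.288% and 0.236% in KO 1 and KO 2, against 0.199% and 0.221% in WT 1 and WT 2. Both KO libraries were still above both WT libraries, but the log2 fold change was 0.37 (SE 0.25, adjusted p = 0.9998, unadjusted p = 0.189, edgeR quasi-likelihood test). Gene and copy differ at 1 base in the sequences above, and 6 of the 318 stretches of 31 bases of mt-Nd3 occurred in no other transcript.

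The other complex I genes overlapped between genotypes. Core membrane subunit mt-Nd1 held 2.37% and 2.06% of the gene counts in KO 1 and KO 2, against 2.07% and 2.11% in WT 1 and WT 2 (log2 fold change 0.13, SE 0.33). It has no sequence shared with a nuclear transcript, so this value does not depend on the copies. For mt-Nd2 the shares were 1.56% and 1.94% in KO 1 and KO 2, against 1.73% and 1.60% in WT 1 and WT 2 (0.12, SE 0.34). The proton-pumping subunit genes mt-Nd4 and mt-Nd5 had 3.49% and 3.05% (mt-Nd4) and 1.27% and 1.14% (mt-Nd5) in KO 1 and KO 2, against 3.06% and 3.19% (mt-Nd4) and 1.18% and 1.11% (mt-Nd5) in WT 1 and WT 2. KO 1 was highest for both, and KO 2 lay below or among the WT libraries.

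Gene layout touches the remaining complex I genes. The 3′ end of mt-Nd4l overlaps the start of mt-Nd4 by 7 bases, and both are carried on 1 mRNA. The stretch chrM:10147-10193 (plus strand, GRCm38) shows this overlap in capitals, with the start codon of mt-Nd4 as its first bases.
mt-Nd4l/mt-Nd4: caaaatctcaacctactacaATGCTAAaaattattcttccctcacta
The share of mt-Nd4l was 0.289% and 0.300% in KO 1 and KO 2, against 0.316% and 0.285% in WT 1 and WT 2. In TPM, mt-Nd4l stood to mt-Nd4 as 0.996 and 1.18 in KO 1 and KO 2, against 1.24 and 1.07 in WT 1 and WT 2, with no separation by genotype. In counts per kilobase of full length the ratio was 0.384 and 0.457 in KO 1 and KO 2, against 0.478 and 0.414 in WT 1 and WT 2, so its size depends on the effective length. By prefix, both S1 libraries were below both S2 libraries.

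The gene mt-Nd6 (chrM:13552-14070) is the only protein gene on the minus strand, and in human cells its mRNA lacks the poly(A) tail that the others carry. It held 0.446% and 0.324% of the gene counts in KO 1 and KO 2, against 0.353% and 0.332% in WT 1 and WT 2 (log2 fold change 0.21, SE 0.29). Its TPM over that of mt-Nd5, the neighbour on the plus strand, was 1.78 and 1.44 in KO 1 and KO 2, against 1.52 in both WT libraries. KO 1 was high and KO 2 low on both measures. The sources used here do not give the strand setting of the quantification, so reads from the plus strand across mt-Nd6 cannot be told apart from its own.

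Complex III is represented by mt-Cytb (chrM:14145-15288), which carries haems, though not all those of the complex, and quinone sites. Its shares were those of its complex above, with a log2 fold change of 0.13 (SE 0.37). Few of its bases are shared with nuclear transcripts. In shares, KO 1 was the highest library and KO 2 the lowest.

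Complex IV has its catalytic core encoded by mtDNA. The gene mt-Co1, which carries the haem-copper centre, held the most counts of any member, with 8.65% and 7.99% in KO 1 and KO 2, against 8.48% and 7.94% in WT 1 and WT 2. The genotypes interleaved (log2 fold change 0.06, SE 0.39), and with Gm29216 added the log2 fold change was 0.10. The gene mt-Co2, which receives electrons from cytochrome c, had 5.54% and 3.69% in KO 1 and KO 2, against 3.81% and 4.07% in WT 1 and WT 2 (0.27, SE 0.39). The gene mt-Co3 had 5.10% and 3.70% in KO 1 and KO 2, against 4.08% and 4.20% in WT 1 and WT 2 (0.13, SE 0.37). For both shares, KO 1 was the highest and KO 2 the lowest library. In TPM, mt-Co2 stood to mt-Co1 as 1.78 and 1.28 in KO 1 and KO 2, against 1.25 and 1.42 in WT 1 and WT 2.

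Complex V has a pair of overlapping genes on 1 mRNA. The last 43 bases of mt-Atp8 are also the first of mt-Atp6, and the stretch chrM:7907-7989 (plus strand, GRCm38) shows them in capitals, because reads from there belong to both genes.
mt-Atp8/mt-Atp6: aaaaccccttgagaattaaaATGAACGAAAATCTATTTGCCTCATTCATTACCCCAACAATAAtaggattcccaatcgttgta
The gene mt-Atp6, for the proton channel subunit, held 3.94% and 3.56% of the gene counts in KO 1 and KO 2, against 3.45% and 3.59% in WT 1 and WT 2 (log2 fold change 0.14, SE 0.35). The gene mt-Atp8, for a small subunit beside it, held 0.00946% and 0.0155% in KO 1 and KO 2, against 0.0137% and 0.0123% in WT 1 and WT 2 (-0.01, SE 0.29). In TPM, mt-Atp8 stood to mt-Atp6 as 0.0443 and 0.0803 in KO 1 and KO 2, against 0.0732 and 0.0631 in WT 1 and WT 2, although both lie on the same mRNA. In counts per kilobase of full length the ratio was 0.00802 and 0.0145 in KO 1 and KO 2, against 0.0132 and 0.0114 in WT 1 and WT 2, so its size depends on the short effective length of mt-Atp8. In CPM, mt-Atp6 was at 39606 and 36699 in KO 1 and KO 2, against 35581 and 33664 in WT 1 and WT 2, so on that scale both KO libraries were above both WT libraries. KO 1 was the lowest library for mt-Atp8 and the highest for mt-Atp6, and the WT libraries lay between the KO libraries in this ratio.

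The 2 rRNAs build the mitochondrial ribosome, and mRNA libraries catch little of them because their tails are short. The small-subunit rRNA mt-Rnr1 held 0.197% and 0.217% of the gene counts in KO 1 and KO 2, against 0.219% and 0.242% in WT 1 and WT 2. The large-subunit rRNA mt-Rnr2 held 0.332% and 0.504% in KO 1 and KO 2, against 0.599% and 0.585% in WT 1 and WT 2. For each rRNA the WT libraries both exceeded the KO libraries, which was true of 18.1% of all genes tested in shares. In CPM both rRNAs were again wholly lower in KO, against 13.1% of all genes. Together with mt-Nd3, 3 of the 15 measured genes had genotypes that did not overlap in shares, against 26.3% of all genes, and in CPM it was 4 with mt-Atp6, against the same percentage. For mt-Rnr1 the values of KO 2 and WT 1 nearly met. The log2 fold changes were -0.45 (SE 0.33, unadjusted p = 0.221) for mt-Rnr2 and -0.10 (SE 0.24, unadjusted p = 0.683) for mt-Rnr1, and neither passed the edgeR quasi-likelihood test (adjusted p = 0.9998 for each). KO 1 decided the size for mt-Rnr2: without it the log2 fold change was -0.17, and without KO 2 it was -0.81.

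Set against mitochondrial mRNA, the rRNA counts amounted to 1.38% and 2.24% of it in KO 1 and KO 2, against 2.46% and 2.50% in WT 1 and WT 2. The ratio of mt-Rnr2 to mt-Rnr1 counts was 1.69 and 2.33 in KO 1 and KO 2, against 2.73 and 2.42 in WT 1 and WT 2. Both ratios were thus lower in each KO library than in each WT library, with KO 1 farthest away. Since the libraries were selected for poly(A) tails, these values describe the rRNA caught and not the amount in the tissue.

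The 22 tRNAs are 59 to 75 bases long and had effective lengths of 6.44 to 7.08 bases in the files. With 0 counts, a tRNA could have held at most 1.17e-05% and 9.97e-06% of the gene counts in KO 1 and KO 2, against 9.27e-06% and 8.71e-06% in WT 1 and WT 2 (a limit of 3 counts). This limit covers counting error only. Kits of this kind are not made for RNAs this short, and the files do not show how tRNA levels compare.

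Across the genotype contrast 0 of the 15 measured genes were called, against 122 of 15643 genes (0.78%), of which 120 were higher and 2 lower in KO. At an unadjusted p under 0.05 it was 1 member, against 4.02% of all genes. With the prefix as a block, 320 genes (2.05%) were called and again 0 members, and DESeq2 and limma-voom also called 0 members. The median log2 fold change of the 13 protein genes was 0.13, beside 0.002 over all genes tested, and 12 of the 13 were positive, beside 50.3% of all genes. The 13 genes are cut from shared precursors and compete for the same counts, so they are not independent. The size depended on single libraries: the median was 0.05 without KO 1, 0.19 without KO 2, 0.19 without WT 1 and 0.07 without WT 2, with 9, 10, 13 and 9 of the 13 positive. Scaled to the summed mitochondrial mRNA the median was -0.01, with 5 of 13 positive and the median of all genes at -0.13. That scale fixes the sum of these same 13 genes, so their values on both sides of 0 are built in. Within prefixes, 10 of the 15 members had opposite signs in log2 CPM. In shares of gene counts, KO 1 was the highest library for 10 of the 13 protein genes. Neither count was made over all genes, so neither sets the members apart from other genes.

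**Figure D3:**
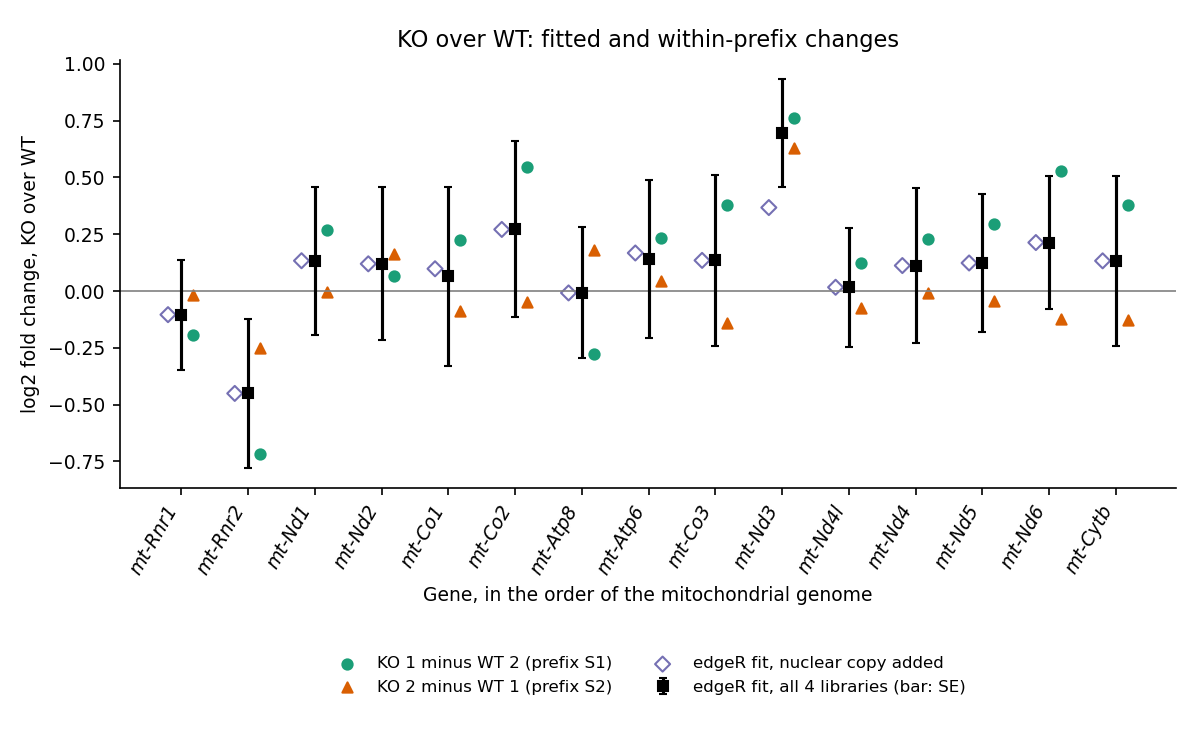
Log2 fold change of KO over WT for the 15 measured genes: squares are the edgeR fit with its SE, diamonds the fit with the nuclear copy added, circles KO 1 minus WT 2 and triangles KO 2 minus WT 1. The circles lie above the triangles for most genes, both stay high for mt-Nd3 (0.76 and 0.63), and its diamond lies at 0.37.

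Between prefixes 0 of the 15 measured genes were called, against 1 of 15643 genes (0.00639%). That gene was Dbp, a clock-controlled transcription factor, named after its value was seen (log2 fold change 3.80, SE 0.16, adjusted p = 0.0330, edgeR quasi-likelihood test). With genotype as a block 491 genes (3.14%) and 0 members were called. At an unadjusted p under 0.05 there were 2 members, against 15.5% of all genes. They were mt-Atp8, with a log2 fold change of -0.52 (SE 0.15, unadjusted p = 0.0179, adjusted p = 0.285), and mt-Nd2, with -0.31 (SE 0.12, unadjusted p = 0.0494, adjusted p = 0.322). The median of the 13 protein genes was 0.02, beside 0.01 over all genes.

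Shares of 5 members were wholly higher in S1 than in S2 (mt-Nd1, mt-Co2, mt-Atp6, mt-Co3 and mt-Nd4), against 35.5% of all genes. For mt-Nd1 they were 2.37% and 2.11% in S1 (KO 1 and WT 2), against 2.06% and 2.07% in S2 (KO 2 and WT 1). Shares of 3 members (mt-Nd2, mt-Atp8 and mt-Nd4l) were wholly lower in S1, against 16.8% of all genes, so 8 of 15 did not overlap, against 52.3% of all genes. For mt-Nd2 they were 1.56% and 1.60% in S1, against 1.94% and 1.73% in S2. For mt-Atp8 they were 0.00946% and 0.0123% in S1, against 0.0155% and 0.0137% in S2. In CPM the same 3 members were wholly lower in S1, against 27.3% of all genes, and 0 of 15 were wholly higher, against 25.9%, so 3 of 15 did not overlap, against 53.2% of all genes. The higher side was thus seen in shares and not in CPM: mt-Nd1, for example, was at 23843 and 19799 CPM in S1, against 21269 and 21328 CPM in S2. Divided by the summed mitochondrial mRNA, mt-Co2 and mt-Co3 were wholly higher in S1, as given below. Endothelial markers differed by prefix too, with 6 of 6 at a positive log2 fold change (median 0.64, 0 called, 2 called with genotype as a block), and their part in the mitochondrial values was not tested.

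Composition within the mitochondrial mRNA was compared by dividing each protein gene by the sum of the 13. Here mt-Nd3 made up 0.603% and 0.696% of the mitochondrial mRNA counts in KO 1 and KO 2, against 0.435% and 0.442% in WT 1 and WT 2. It was the only one of the 13 whose genotypes did not overlap, against 27.3% of all genes divided by the same sum (5.82% higher and 21.4% lower in KO), and scaled in this way its log2 fold change was 0.57 (SE 0.29, adjusted p = 0.9998, edgeR quasi-likelihood test). KO 1 stood apart in several genes. Its mt-Co2 made up 14.4% and that of KO 2 11.4%, against 11.4% in WT 1 and 12.3% in WT 2. Its mt-Nd2 made up 4.07% and that of KO 2 6.03%, against 5.20% in WT 1 and 4.83% in WT 2. By prefix, mt-Co2 and mt-Co3 were wholly higher in S1, and mt-Nd2, mt-Co1, mt-Atp8, mt-Nd4l and mt-Nd5 wholly lower, 7 of 13 in all, against 41.8% of all genes divided by the same sum (22.6% higher and 19.2% lower in S1).

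**Figure D4:**
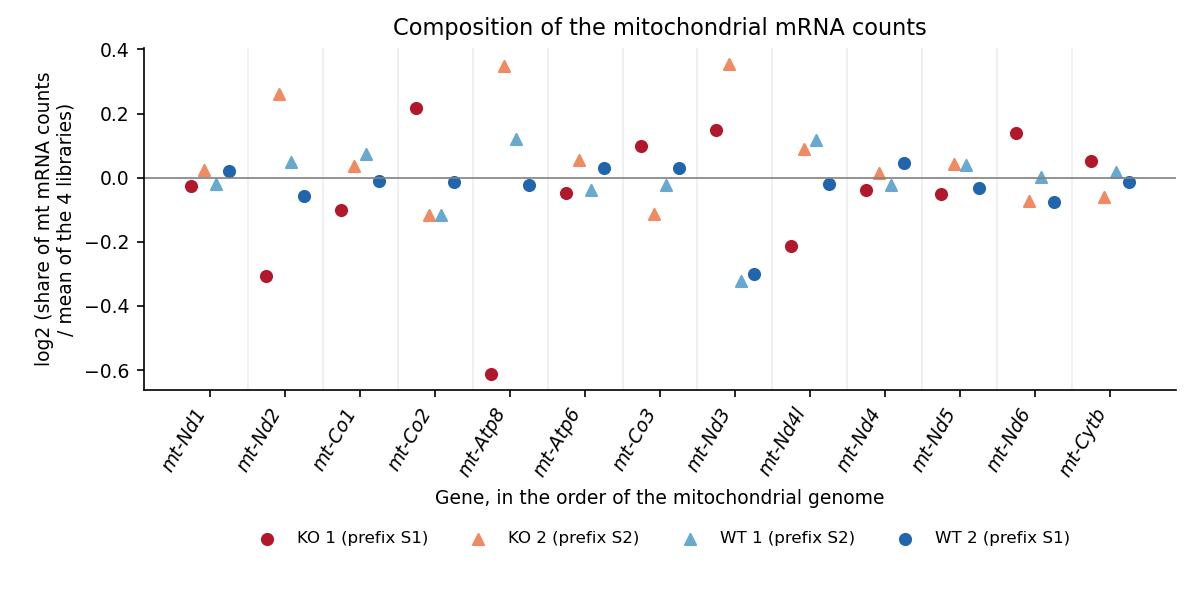
Log2 of each protein gene's share of the mitochondrial mRNA counts over its mean in the 4 libraries, by library (circles prefix S1, triangles prefix S2). KO 1 has the lowest share for 8 of the 13 genes and the highest for 4, and mt-Nd3 has both KO points above both WT points.

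Nuclear genes that copy, transcribe, process and translate mitochondrial DNA were set beside the members, as lists described by counts. Of 18 genes for replication and transcription, 0 were called between genotypes, 12 had a positive log2 fold change, and the median was 0.06. The smallest p belonged to Mterf4 (0.24, SE 0.17), a factor for mitochondrial ribosome assembly, and to Mterf1a (0.25, SE 0.33), a transcription termination factor. Tfam, which packs and transcribes mitochondrial DNA and is named here for its role, was at 33.6 and 27.9 CPM in KO 1 and KO 2, against 31.2 and 29.2 CPM in WT 1 and WT 2. The KO libraries lay on either side of the WT libraries.

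RNA processing and decay genes gave a median of -0.03, with 9 of 30 positive and 0 called. Trmu, a tRNA-modifying enzyme, was at 0.32 (SE 0.22), and 1110008L16Rik was at -0.25 (SE 0.18). Translation and assembly genes gave a median of 0.001, with 10 of 20 positive and 0 called, and smallest p in Cox14 (0.33, SE 0.24) and Coa3 (0.24, SE 0.25), both needed for assembly of complex IV. Between prefixes the same 3 lists had 0 called. Their smallest p were in Mgme1 (-0.56, SE 0.15), a mitochondrial DNA exonuclease, in Pnpt1 (-0.53, SE 0.12), an RNA-degrading enzyme, in Lrpprc (-0.48, SE 0.14), which stabilises mitochondrial mRNAs, and in Taco1 (-0.56, SE 0.17), a translational activator of the mt-Co1 protein. Lrpprc was at 95.5 CPM in KO 1 and 117 in WT 2 (prefix S1), against 145 in KO 2 and 152 in WT 1 (prefix S2).

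Nuclear-encoded partners of the same complexes also had 0 genes called between genotypes. The median log2 fold change was 0.14 for 37 complex I subunits, with 35 positive, 0.06 for 9 of complex III, with 7 positive, 0.14 for 12 of complex IV, with 12 positive, and 0.15 for 15 of complex V, with 14 positive. The examples with the smallest p were Ndufa3 (0.32, SE 0.30) in complex I, Uqcrq (0.25, SE 0.28) in complex III and Cox7a1 (0.27, SE 0.23) in complex IV. Scaled to the summed mitochondrial mRNA, which moved the median of all genes to -0.13, the counts of positive subunits were 18 of 37, 4 of 9, 5 of 12 and 8 of 15, with medians of -0.0053, -0.068, -0.0058 and 0.0064 for complexes I, III, IV and V. As with the members, KO 1 was high: the summed level of the complex IV subunits was 8755 and 6477 CPM in KO 1 and KO 2, against 7046 and 6500 CPM in WT 1 and WT 2.

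Atp5g1, which encodes the ring subunit of ATP synthase, stood out of its list. It was at 18.3 and 14.3 CPM in KO 1 and KO 2, against 5.32 and 6.12 CPM in WT 1 and WT 2, so both KO libraries were far above both WT libraries. The log2 fold change was 1.51 (SE 0.21), which missed the threshold in the edgeR quasi-likelihood fit with genotype alone (adjusted p = 0.0547) and passed it with the prefix as a block (adjusted p = 0.000483). Atp5g3, which encodes the same mature protein and is named here for that role, was at 208 and 155 CPM in KO 1 and KO 2, against 160 and 152 CPM in WT 1 and WT 2. The skeletal muscle markers given above were higher in the same libraries, and their part in the Atp5g1 value was not tested.

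Between prefixes 0 nuclear subunits were called. Signs were mixed in complex I (29 of 37 positive), complex III (5 of 9) and complex V (10 of 15). In complex IV all 12 of 12 were positive. Ndufs1 (-0.79, SE 0.18), Uqcrc2 (-0.55, SE 0.14) and Atp5a1 (-0.44, SE 0.11) had log2 fold changes below 0, and Ndufa1 (0.64, SE 0.22) and Cox5b (0.34, SE 0.20) above 0. The median was 0.17 for complex I, 0.08 for complex III, 0.16 for complex IV and 0.21 for complex V. For the mitochondrially encoded subunits the range was -0.52 to 0.28.

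**Figure D5:**
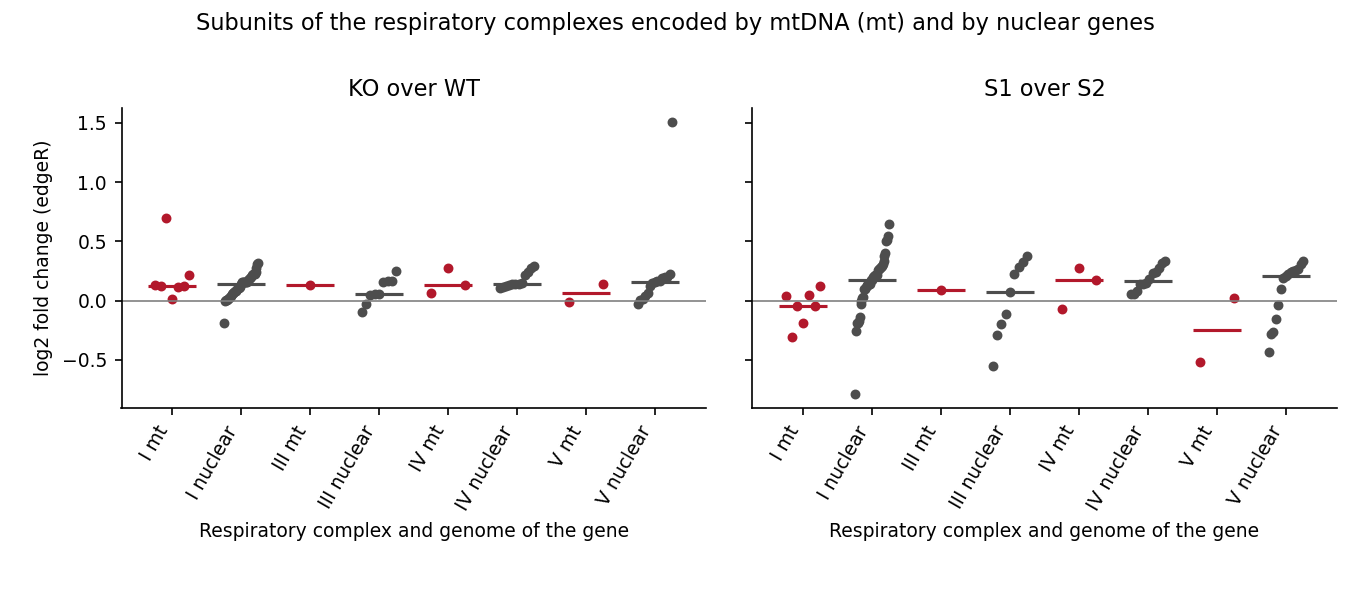
Log2 fold change (edgeR) of each subunit encoded by mtDNA (mt) and by nuclear genes in complexes I, III, IV and V, for KO over WT and for S1 over S2, with a line at the median. Between genotypes most points lie between 0 and 0.3 apart from mt-Nd3 at 0.70 and Atp5g1 at 1.51, and between prefixes the points spread to both sides of 0.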

How the data were processed

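RNA was sequenced in 4 libraries. Per the labels' protocols it was purified with TRIzol and RNeasy, and libraries were made with the TruSeq mRNA Stranded kit, which selects poly(A) tails. Per the submitters' processing notes, kallisto 0.45.0 and the mm10 build were used. The sources used here do not give the transcript set, the trimming or the strand setting. The deposited files hold, per the file headers, an estimated count, a TPM value (abundance scaled to a total of 1e6), a length and an effective length for each of 141450 transcripts. kallisto splits reads that fit several transcripts by estimation, so estimated counts of genes with identical copies are uncertain. Effective lengths of long transcripts were 199 bases below their length.

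Transcripts were matched to GENCODE vM21 (GRCm38) by identifier. In all 138191 matched (97.7%), and the 3259 others held 0.992 to 1.04% of the counts and were left out. The deposited estimated counts were added up by gene and then rounded. A share is a percent of the gene counts of its library. Gene and copy sequences were compared over stretches of 31 bases.

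Genotype, and separately prefix, was tested with edgeR 4.0.16 (quasi-likelihood, TMM, R 4.3.3) on all 4 libraries, with filterByExpr (minimum count 10, total 15) and Benjamini-Hochberg adjustment over 15643 genes (threshold 0.05). SEs were derived from the fitted change and F. Within-prefix differences are log2 CPM with a prior count of 2. The labels do not say that libraries are separate animals, so the p-values reflect only how far these 4 libraries spread, which may be technical. Alternatives were other scalings, filters and units, copies added, muscle genes left out, the blocks, each library left out, DESeq2 1.42.0 and limma 3.58.1 (voom, and log2(TPM + 1) or log2(TPM + 0.1)). The fits were tested on simulated data. A true log2 change of 1 was recovered for 39% of changed genes between genotypes and 22% between prefixes. A change of 3 was recovered for 100% and 97%. Unchanged genes called were 10 between genotypes and 7 between prefixes. The changed genes were drawn from genes of many levels, and neither simulation held a difference in the other factor. These rates are therefore not specific to the members. All fitted member changes were smaller than 1, so a lack of calls does not show that members were unchanged. A block leaves 1 residual degree of freedom.

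The replicate numbers of the titles were not used to pair the libraries: deviations of same-numbered libraries from their group means correlated at -0.38 over 15643 genes. With 2 libraries a group, the correlation of same-prefix libraries (0.38) is the same number with its sign turned. It is thus 1 measure and cannot settle which libraries belong together. Members and lists were chosen with earlier results of these data known. All measured members were named. In each nuclear list, genes called in any of the genotype, prefix or blocked fits were named, and otherwise those with the smallest p. Lists of markers for white adipocytes, macrophages, lymphocytes, fibroblasts and nerve had 0 genes called in either contrast without a block. With the prefix as a block, 4 white adipocyte genes and 1 brown adipocyte gene were called lower in KO. With genotype as a block, 2 white adipocyte, 1 brown adipocyte, 1 skeletal muscle and 1 lymphocyte gene were called higher in S1. In the same fit 2 white adipocyte and 3 macrophage genes were called lower in S1. Prorp and Atp5pb have no row under those symbols, and Atp5o has 2 identifiers, of which 1 was tested.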

Additional observations from a re-analysis of the deposited data

Results flagged for a closer look

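The share of gene counts held by all mt- genes differed in direction between the library name prefixes. KO 1 was 4.98 percentage points above WT 2 within prefix S1, and KO 2 was -1.18 points from WT 1, that is below it, within prefix S2. Each prefix has 1 library of each genotype, so this difference between prefixes was not tested.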

How the results depend on the processing

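Across 17 alternatives for the fits, 0 members were called in either contrast. The number of genes called between genotypes was 122, and it was 184 scaled to mitochondrial mRNA, 457 with no filter, 210 with DESeq2, 320 with the prefix as a block and 78 to 205 with 1 library left out (lowest without KO 2, 187 without WT 1, highest without WT 2). Between prefixes it was 1, and it was 823 with no filter, 525 with DESeq2, 0 with limma-voom, 491 with genotype as a block and 0 to 1 with 1 library left out. With the replicate number of the titles as a block, 164 genes were called between genotypes and 0 between prefixes. Same-numbered libraries deviated in opposite directions (correlation -0.38), and the crossed pairing, which is the prefix block, gave 320 calls.

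Scaling to mitochondrial mRNA moved the median of all genes to -0.13 for KO over WT, and log2(TPM + 0.1) moved it to -0.11. The median of the 13 protein genes, 0.13 for KO over WT, was 0.015 with either TPM setting and 0.05 to 0.19 with 1 library left out. Scaled to mitochondrial mRNA, which fixes the sum of these 13 genes, it was -0.0054. For S1 over S2 it was -0.16 (without KO 1) to 0.16 (without WT 2). The share of all mt- genes, KO minus WT, ran from -1.06 to 4.86 points, and S1 minus S2 from 0.364 to 5.34 points, with 1 library left out. As a share of TPM, S1 minus S2 was 0.114 points.

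Of 390 log2 fold changes of members under settings other than leaving out a library, 21 changed sign, none of them called. Scaling to mitochondrial mRNA fixes the sum of the protein genes, so mixed signs among them are built in there. Scaled to mitochondrial mRNA, KO over WT was -0.00064 for mt-Nd1, -0.063 for mt-Co1, -0.0091 for mt-Co3, -0.10 for mt-Nd4l, -0.023 for mt-Nd4, -0.0061 for mt-Nd5 and -0.0054 for mt-Cytb. With either TPM setting it was -0.043 for mt-Co1, -0.089 for mt-Nd4l and -0.0014 for mt-Nd4. For S1 over S2, mt-Nd1 was -0.0046 and mt-Atp6 -0.019 scaled to mitochondrial mRNA, and -0.010 and -0.024 with either TPM setting. With nuclear copies added, mt-Co1 was 0.0073 and mt-Nd3 0.15. Of 120 values with 1 library left out, 24 changed sign. For KO over WT these were in mt-Nd2 (-0.071 to 0.29), mt-Co1 (-0.047 to 0.18), mt-Co2 (-0.026 to 0.52), mt-Atp8 (-0.43 to 0.32), mt-Co3 (-0.094 to 0.33), mt-Nd4l (-0.12 to 0.17), mt-Nd6 (-0.015 to 0.41), mt-Cytb (-0.041 to 0.29). For S1 over S2 they were in mt-Rnr1 (-0.18 to 0.012), mt-Nd1 (-0.11 to 0.16), mt-Co1 (-0.19 to 0.033), mt-Co2 (-0.020 to 0.52), mt-Atp6 (-0.10 to 0.13), mt-Co3 (-0.027 to 0.35), mt-Nd3 (-0.47 to 0.31), mt-Nd4 (-0.073 to 0.16), mt-Nd5 (-0.20 to 0.098), mt-Nd6 (-0.16 to 0.36), mt-Cytb (-0.12 to 0.26). The cause of these shifts was not tested. With 2 libraries a group, leaving out 1 makes the lone library borrow its spread from the other group.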
